A study of Mus musculus with 2 samples.

Results

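The V-ATPase was followed here through 10 of its subunit genes, taken as a list of names with earlier results of these data known: Atp6v0d1, Atp6v0d2, Atp6v0a1, Atp6v0b, Atp6v0c, Atp6v1a, Atp6v1b2, Atp6v1c1, Atp6v1e1 and Atp6v1h. They are 10 of the 32285 genes counted in each of 2 single-cell RNA libraries, and all 10 were detected in both. Adherent bone marrow cells, labelled as osteoclast precursors, came from a wild-type male C57BL/6J mouse aged 3 months. They were grown for 48 h with 5 ng/mL M-CSF and then for 24 h with 100 ng/mL M-CSF, 30 ng/mL RANKL and 10 ng/mL human TNF, in medium depleted of hormones. The group called DHT had 1 nM 5α-dihydrotestosterone (DHT), an androgen, throughout, and the group called Vehicle had an equal volume of ethanol. There was 1 library per group, from 1 animal, so no difference between DHT and vehicle has a replicate check. No test or p-value is given, and every interval below covers counting error only, not the spread between cultures or animals.

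The V-ATPase is a rotary proton pump. Its V1 sector, in the cytosol, splits ATP, and its V0 sector, in the membrane, carries the protons. All nucleated cells use it to acidify lysosomes and endosomes. Osteoclasts, the cells that resorb bone, also place it in the ruffled border facing the bone, where the acid dissolves mineral. Several subunits exist as isoforms. Atp6v0d2 encodes the d isoform known from osteoclasts and certain macrophages, where Atp6v0d1 is the widespread one. Tcirg1 encodes the a isoform of the osteoclast pump, and its loss causes osteopetrosis, whereas Atp6v0a1 is an a isoform of lysosomes and of neurons. Lysosomal genes, V-ATPase genes among them, are known targets of the MiT factors (Mitf, Tfeb, Tfec and Tfe3), which bind sites built on the letters CACGTG.

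That motif is shown because it is the known MiT core. RefSeq promoters (GRCm38.p6, from 250 bases before to 50 after a gene's start) were at hand for 6 of the 10 members: Atp6v0d1, Atp6v0a1, Atp6v0b, Atp6v0c, Atp6v1a and Atp6v1e1. CACGTG, which reads the same on both strands, was in a promoter of 3 of these 6 genes, which have 8 promoters in all, and in 7.15% of all 32851 single promoters. Over the members and 15 further subunits and accessory proteins it was in a promoter of 4 of the 19 genes with one, Atp6v0e being the other. The 30 bases around each match follow, 5′ to 3′ on the gene's own strand, with the motif in capitals.
Atp6v0b, upstream match: gtgcgcgggggtCACGTGgggtcggcgcat
Atp6v0b, downstream match: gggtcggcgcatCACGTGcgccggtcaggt
Atp6v0d1: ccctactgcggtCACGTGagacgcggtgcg
Atp6v1a: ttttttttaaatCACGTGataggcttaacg
The Atp6v0b windows lie at chr4:117887348-117887377 and chr4:117887330-117887359, that of Atp6v0d1 at chr8:105566050-105566079 and that of Atp6v1a at chr16:44139373-44139402, all on the minus strand. Relative to the RefSeq start, which need not be the GENCODE gene end given in the next paragraph (that of Atp6v1a lies farther upstream), the motif begins at -36 and -18 in Atp6v0b, at -3 in Atp6v0d1 and at -131 in Atp6v1a. TCACGTG, a longer form that contains the first motif and was searched on both strands, was in the same 3 promoters and in 3.77% of all promoters. TCACGTGA, longer again, was in those of Atp6v0d1 and Atp6v1a and in 0.974% of all. These are matches of letters and no binding was measured.

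The genes themselves lie on 8 chromosomes of GRCm38, and the counts are per gene, with no position within it. Among the V0 genes, Atp6v0d2 (ENSMUSG00000028238) spans 19876841 to 19922605 of chromosome 4, Atp6v0d1 (ENSMUSG00000013160) 105524465 to 105566047 of chromosome 8 and Atp6v0a1 (ENSMUSG00000019302) 101009452 to 101063719 of chromosome 11. The ring genes are shorter. Atp6v0b (ENSMUSG00000033379) spans 117884326 to 117887333 of chromosome 4 and Atp6v0c (ENSMUSG00000024121) 24163866 to 24169702 of chromosome 17. Of the V1 genes, Atp6v1a (ENSMUSG00000052459) spans 44085402 to 44139705 of chromosome 16 and Atp6v1b2 (ENSMUSG00000006273) 69088646 to 69113711 of chromosome 8. Atp6v1c1 (ENSMUSG00000022295) spans 38661933 to 38692446 of chromosome 15, Atp6v1e1 (ENSMUSG00000019210) 120794305 to 120822793 of chromosome 6 and Atp6v1h (ENSMUSG00000033793) 5070018 to 5162529 of chromosome 1. Atp6v0b overlaps the antisense gene Gm12841, and Atp6v1b2, Atp6v1e1 and Atp6v1h overlap Slc18a1, Slc25a18 and Rgs20 on the opposite strand. Whether counting used strand is not given in the sources used here, and Atp6v0c has pseudogenes that could share its reads, so the values of these 5 genes carry that uncertainty.

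After filtering, 7708 DHT cells and 8590 vehicle cells were kept, with medians of 30133 and 50833.5 unique molecular identifiers (UMIs, each standing for a captured transcript). The libraries shared 33 barcodes, 18 of them among kept cells. The labelled identity held for part of the cells. In each of 3 clusters, 7 of the 10 osteoclast markers were over 2-fold above the median of the other clusters, and Acp5 (the acid phosphatase used to stain osteoclasts) was among the 10 leading genes, although histone genes were prominent in cluster 0. Ctsk, the protease that cuts bone collagen, was among the leading genes of clusters 2 and 7. These 3 clusters are pooled below with an unnamed cluster led by Plxna4 and Gpnmb (cluster 1). The choice was meant to keep precursors with little Acp5, but cluster 1 was not clearly poorer in it, as given in the next paragraph. These binned cells number 2323 with DHT and 5008 with vehicle, 30.1% and 58.3% of kept cells, at medians of 57119 and 59527 UMIs. Most other cells were macrophage-like, monocyte-like, progenitor-like (granulocyte-monocyte), neutrophil-like, dendritic-like and B cell-like by their markers. A cluster of low depth, with 4 macrophage markers among its 10 leading genes, stayed without a name. It made up 12.97% of kept cells with DHT and 4.51% with vehicle, at medians of 1485.5 and 1506 UMIs, and 2 clusters of under 100 cells were not used. The neutrophil-like cells made up 24.3% of DHT cells and 12.7% of vehicle cells. RNA of neutrophil markers was also higher with DHT inside the binned cells, where 8 markers summed to 1112 CPM (the usual scaled count, a gene's UMIs over all UMIs of the same cells) against 441 CPM. Their part in the results below was not tested unless a value is given.

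Binned cells with at least 5000 UMIs were ranked by the share of their UMIs that came from Acp5 and Ctsk and cut into 5 bins at the quintiles of both libraries together. The inner edges were 35.1, 92.1, 302 and 1175 CPM. A bin is a range of a continuous score and not a cell type, and between 27 and 94 cells of a library lay within 5% of an edge. The bins hold 400, 378, 478, 493 and 543 DHT cells and 1050, 1072, 972, 957 and 907 vehicle cells. Bin 5, the highest, thus took 23.7% of the ranked cells with DHT and 18.3% with vehicle, but 7.04 and 10.6% of all kept cells. The unnamed cluster 1 had a median share of 220 CPM with DHT and 132 CPM with vehicle. That was above cluster 0 (109 and 68.8 CPM) and cluster 2 (148 and 89.4 CPM), and below cluster 7 (2308 and 2098 CPM). Its summed Acp5 level was the lowest of these clusters, at 282 and 204 CPM. Cluster 0 had 317 and 251 CPM of Acp5, and cluster 2 had 321 and 224 CPM. The genes used for ranking differed little but steadily within bins. Acp5 was higher with DHT in 5 of 5 bins, at a mean log2 ratio of 0.07, and Ctsk lower in 5 of 5, at a mean of -0.11. Acp5 was at 9.90 and 9.68 CPM in bin 1 and at 1517 and 1454 CPM in bin 5, with DHT and vehicle respectively. The proliferation gene Mki67 was lower in bin 5 than in bin 1, at 236 against 387 CPM with DHT and 195 against 433 CPM with vehicle.

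Along the bins, Atp6v0d2 had the steepest gradient of the 10 members. Its level in bins 1 to 5 was 30.8, 46.7, 125, 321 and 679 CPM with DHT, and 23.3, 49.5, 149, 337 and 699 CPM with vehicle. Each bin was above the one before it in both libraries. The highest bin exceeded the lowest 22.1-fold with DHT (95% interval 20.5 to 23.8) and 30.0-fold with vehicle (28.5 to 31.6). The size of the gradient depended on how cells were ranked. On the log2 scale it was 4.46 and 4.91, and with bins of Ctsk alone 3.29 and 3.42. Over all kept cells it was 6.00 and 5.36, larger with DHT, and in osteoclast-like clusters alone 5.19 and 5.37. The share of cells with an Atp6v0d2 UMI followed, once each cell was thinned to 4719 UMIs so that depth did not enter. It was 8.50, 16.7, 28.9, 64.5 and 89.5% with DHT, and 9.33, 15.2, 37.3, 65.2 and 90.8% with vehicle. Without thinning, bin 1 stood at 39.3 and 38.3% and bin 5 at 99.1 and 99.7%. Neutrophil-like cells, which should lack the gene, gave 3.00 and 4.31% after thinning (7.70 and 8.70% before) at medians of 13165 and 9862 UMIs per cell, so every bin was above that background. Atp6v0d2 is itself an established osteoclast gene, and its gradient along 2 other osteoclast genes measured in the same cells is a description of those cells.

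**Figure D1:**
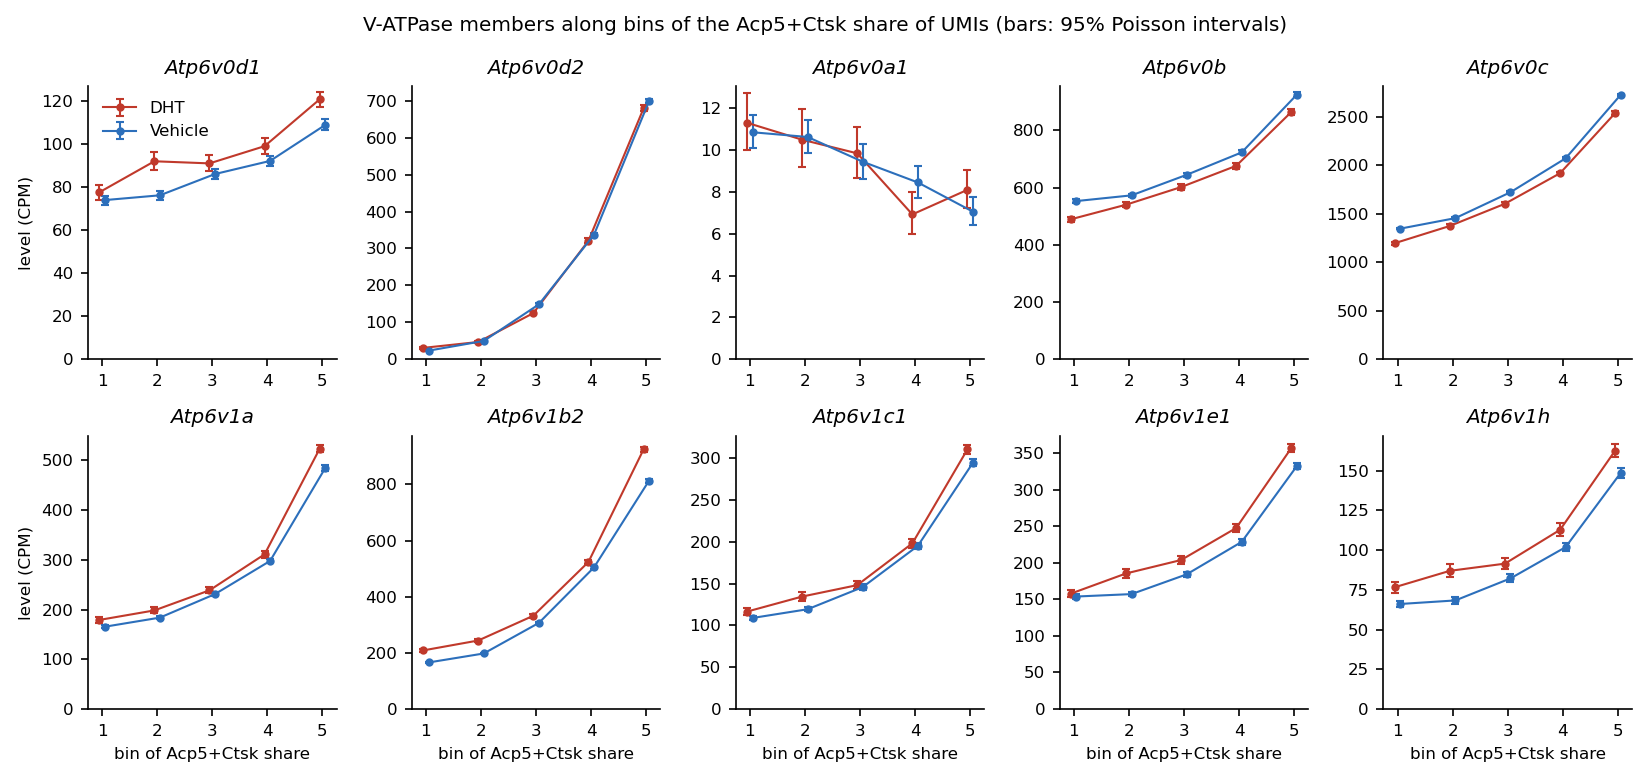
Level of each V-ATPase member (y axis, UMIs in CPM, linear from 0) in 5 bins of the Acp5+Ctsk share (x axis) with DHT (red) and vehicle (blue), with bars giving 95% Poisson intervals of 1 library each. Atp6v0d2 climbs from 30.8 to 679 CPM with DHT and from 23.3 to 699 CPM with vehicle, Atp6v0a1 is lower in bin 5 than in bin 1, and the gradients of the other 8 members lie between these.

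The other V0 members had smaller gradients, and 1 ran the other way. Atp6v0d1, the widespread d isoform, which links the V0 rotor to V1, was at 77.6 and 73.9 CPM in bin 1 and at 121 and 109 CPM in bin 5 (DHT and vehicle), which is 1.56-fold and 1.47-fold. The proteolipids Atp6v0c and Atp6v0b form the rotating ring that carries protons. Atp6v0c went from 1195 to 2536 CPM with DHT and from 1345 to 2724 CPM with vehicle, and Atp6v0b from 489 to 865 CPM and from 553 to 925 CPM. Of the 3 members with the motif in a promoter, Atp6v0d1 and Atp6v0b had the smallest increases of the 9 members that were higher in bin 5, and Atp6v1a is described in the next paragraph. No promoter was at hand for Atp6v0d2, Atp6v1b2, Atp6v1c1 and Atp6v1h, which are among those 9. The order therefore does not compare members with and without the motif. For both ring genes each bin was above the one before it in both libraries. Atp6v0a1 was lower in the highest bin, at 8.10 CPM against 11.3 CPM in bin 1 with DHT and at 7.05 against 10.9 CPM with vehicle. The ratio of highest to lowest was 0.717 (0.607 to 0.847) and 0.650 (0.576 to 0.733). Over bins and libraries it ranged from 6.92 to 11.3 CPM, below the 20 CPM asked for in the count given next.

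All 5 V1 members were higher in each bin than in the one before it, in both libraries. Atp6v1b2, the B subunit that shares the ATP-binding ring with A, had the largest V1 gradient, from 209 to 925 CPM with DHT (4.43-fold, 4.30 to 4.56) and from 166 to 814 CPM with vehicle (4.90-fold, 4.80 to 5.00). Atp6v1a, the catalytic A subunit, went from 179 to 524 CPM and from 166 to 485 CPM, 2.92-fold and 2.93-fold. Atp6v1c1, the C subunit at the joint of V1 with V0, was 2.66-fold and 2.70-fold higher in the highest bin. The peripheral stalk subunit Atp6v1e1 was 2.26-fold and 2.16-fold higher, and the regulatory H subunit Atp6v1h 2.12-fold and 2.25-fold. Among V1 genes the gradients ranged from 2.12-fold to 4.43-fold with DHT and from 2.16-fold to 4.90-fold with vehicle, and the order of the first 3 was the same with DHT and with vehicle.

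A gene was called when its levels differed 1.5-fold or more and the greater was 20 CPM or more. By that rule 9 of 9 members with DHT and 8 of 9 with vehicle were higher in bin 5 than in bin 1. Over all genes that share was 10.7% (732 of 6831) and 10.5% (705 of 6700). The median log2 ratio of bin 5 to bin 1 was 1.13 and 1.14 over the 10 members and 0.00 and -0.02 over all genes tested. With vehicle the exception was Atp6v0d1, just short of the rule.

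Other genes of the pump and of acid secretion were taken from lists chosen with earlier results of these data known. Of 15 further V-ATPase subunits and accessory proteins, 8 reached 20 CPM, and 6 of the 8 were at least 1.5-fold higher in bin 5 in each library. Atp6v1d, of the central stalk, went from 64.3 to 332 CPM with DHT and from 63.8 to 326 CPM with vehicle. Tcirg1 went from 164 to 355 CPM and from 140 to 332 CPM, and Atp6v0e from 325 to 739 CPM and from 366 to 835 CPM. The others of the 6 were Atp6v1g1 (2.32-fold and 2.21-fold), Atp6ap2 (2.29-fold and 2.28-fold) and Atp6v1f (1.79-fold and 1.74-fold). Atp6v0a2, another a isoform, had a log2 ratio of 0.02 and 0.03. Of the 6 acid transport partners, 5 with DHT and 6 with vehicle were at least 1.5-fold higher. Car2, the carbonic anhydrase that supplies protons, went from 5.16 to 108 CPM and from 2.72 to 101 CPM. Slc4a2, which exports bicarbonate, was 4.73-fold and 4.19-fold higher, and the chloride transporter Clcn7 2.06-fold and 2.07-fold. Plekhm1 was 2.78-fold and 2.81-fold higher, Snx10 2.46-fold and 2.45-fold, and Ostm1, the partner of Clcn7, 1.46-fold and 1.55-fold. Among 12 assembly and regulation genes 8 reached 20 CPM, of which 2 were higher (Oxr1, at 2.75-fold and 3.06-fold, and Dmxl1, at 1.92-fold and 1.98-fold) and 1 was lower, Dmxl2, at 0.558 and 0.524. Both Dmxl genes belong to the complex that reassembles V1 with V0. Meak7, below 20 CPM, was 1.61-fold and 2.04-fold higher in bin 5.

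Genes that work beside the pump on the lysosome did not share the gradient as a list. Of 8 Ragulator and Rag genes, which hold mTORC1 at the lysosome, only Lamtor3 passed 1.5-fold (1.51 and 1.55), and the list's median log2 ratio was 0.00 in both libraries. Its lowest were Slc38a9 with DHT (0.865) and Lamtor4 with vehicle (0.908). Of the 5 MiT and osteoclast factors 4 passed in each library. Nfatc1, the main osteoclast transcription factor, was 4.00-fold and 4.64-fold higher in bin 5, Mitf 2.10-fold and 2.44-fold, Tfec 1.77-fold and 1.62-fold and Tfeb 1.73-fold and 1.53-fold, and Tfe3 was at 0.953 and 0.895 of its level in bin 1.

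The isoform in use at the d position changed with the bin. Atp6v0d2 gave 28.4% of d subunit UMIs in bin 1 with DHT and 23.9% with vehicle, and 84.9 and 86.5% in bin 5. In bins 2, 3 and 4 its share was 33.7, 57.9 and 76.4% with DHT and 39.4, 63.3 and 78.5% with vehicle. The share was higher with DHT in bin 1 and lower in the other 4. Its intervals (for bin 2, 32.0 to 35.4% and 38.4 to 40.5%) treat each UMI as independent. In bin 2 the 5% of cells with the most Atp6v0d2 held 44.7% of its UMIs with DHT and 42.3% with vehicle. The intervals are thus too narrow for the spread between cells, and no difference is read from them. Counts at the 3′ end have no length term, and capture can differ between isoforms, so these shares serve to compare cells and not to say which protein prevails. At the a position, Tcirg1 gave 78.7 and 77.7% of a subunit UMIs in bin 1 and 89.5 and 90.01% in bin 5, while Atp6v0a1 gave 5.42 and 6.03% in bin 1 and 2.04 and 1.91% in bin 5. Nearly all UMIs of the B, C and E subunits came from the member genes. In binned cells, Atp6v1b2, Atp6v1c1 and Atp6v1e1 gave between 99.98% and 100% of them in each library.

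**Figure D2:**
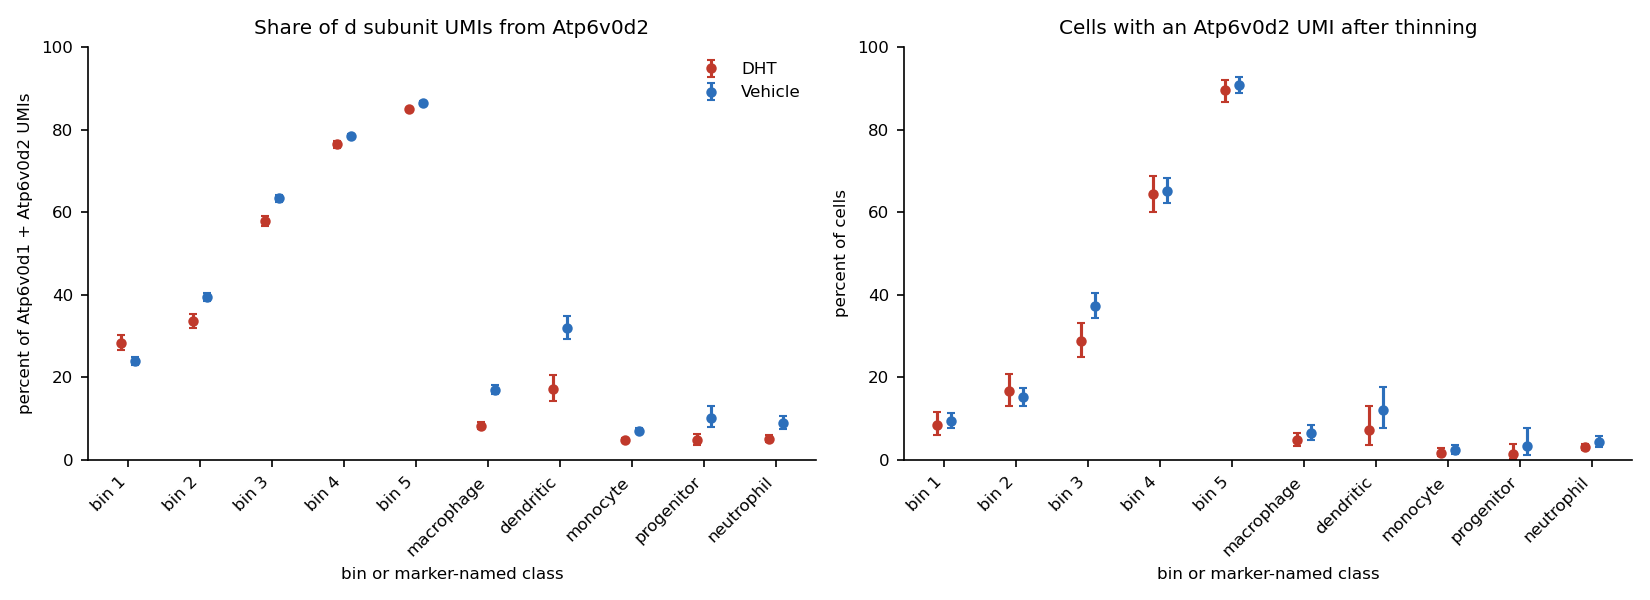
Left, the percent of Atp6v0d1 and Atp6v0d2 UMIs that came from Atp6v0d2, and right, the percent of cells with an Atp6v0d2 UMI after thinning to 4719 UMIs, in 5 bins and 5 marker-named classes (x axis) with DHT (red) and vehicle (blue), with bars giving 95% Clopper-Pearson intervals. Both measures are highest in bin 5 (84.9 and 86.5% of d UMIs) and low in monocyte-like, progenitor-like and neutrophil-like cells, and the left panel shows macrophage-like cells at 8.23% with DHT and 17.0% with vehicle.

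The comparison of DHT with vehicle asks how the androgen bears on osteoclast precursors in an inflammatory culture. Over all binned cells, 7 of the 10 members had a higher level with DHT, each by less than 1.5-fold. Atp6v1b2 was at 497 CPM with DHT and 393 CPM with vehicle, a log2 ratio of 0.34 (0.32 to 0.35). Atp6v1h was at 112 and 93.0 CPM (0.27), Atp6v1a at 314 and 271 CPM (0.21) and Atp6v0d2 at 287 and 247 CPM (0.21). Atp6v1e1 (243 and 210 CPM), Atp6v1c1 (195 and 172 CPM) and Atp6v0d1 (98.6 and 87.1 CPM) had log2 ratios of 0.21, 0.18 and 0.18. The ring genes were level or slightly lower, Atp6v0c at 1812 and 1851 CPM (-0.03) and Atp6v0b at 659 and 681 CPM (-0.05). Atp6v0a1 was at 9.15 and 9.32 CPM (-0.03, with an interval of -0.12 to 0.07).

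None of these reached the 1.5-fold rule: 0 of the 9 members with at least 20 CPM were called, against 1.2% of all genes (78 of 6527). The median over the 10 members was 0.20 on the log2 scale, and 0.05 over all genes tested. A ratio above 1 was found for 7 of 9 members and for 65.2% of all genes (4255 of 6527). TMM or median of ratios scaling lowers every value by 0.05 and turns no member's direction.

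The libraries lay differently along the score: the median Acp5 and Ctsk share of binned cells was 222 CPM with DHT and 133 CPM with vehicle. Within bins, where that share is nearer, Atp6v0d2 had log2 ratios of 0.40 (0.27 to 0.53), -0.08 (-0.19 to 0.02), -0.25 (-0.31 to -0.19), -0.07 (-0.11 to -0.03) and -0.04 (-0.06 to -0.02) in bins 1 to 5, with a mean of -0.01. So it was higher with DHT in bin 1 alone. By cluster, it stood at 161 CPM with DHT and 148 CPM with vehicle in cluster 0, 230 and 191 CPM in cluster 1, 183 and 147 CPM in cluster 2 and 756 and 757 CPM in cluster 7, the cluster with the most Acp5. It was thus higher with DHT in 3 of the 4 clusters, which are not matched for the score.

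In bin 1 a few cells held most of the gene's UMIs in both libraries. The median cell had none, the 90th percentile was 96.0 CPM with DHT and 64.2 CPM with vehicle, and the 99th was 521 and 383 CPM. The 5% of cells with the most (20 and 52 cells) held 52.8 and 55.3% of the UMIs, whereas in bin 5 they held 15.4 and 14.7%. After thinning, the share of cells with a UMI in bin 1 ran against the CPM (8.50% with DHT and 9.33% with vehicle), so no order is read from it. The summed neutrophil markers differed most in bin 1, at 1554 CPM with DHT and 317 CPM with vehicle, and the summed osteoclast markers were at 437 and 299 CPM. With cells of more than 1000 CPM of neutrophil markers left out, the log2 ratio of Atp6v0d2 in bin 1 was 0.36, and with free RNA subtracted it was 0.42. It was larger, at 0.52, as the mean of each cell's CPM, and 0.42 with bin edges from vehicle. With 10 bins the lowest gave 0.18 and the next 0.61. Among the smaller values were 0.19 with the vehicle library thinned, 0.11 at a mitochondrial limit of 5% and 0.16 with at least 1000 genes and 2000 UMIs. It was 0.17 at resolution 0.3, 0.18 in osteoclast-like clusters alone and 0.05 in bins of Acp5 alone. Over all kept cells the lowest bin gave -0.66. The part of the osteoclast markers was not tested.

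The other members kept small differences within bins. Median log2 ratios of the 10 members were 0.08, 0.14, 0.05, 0.04 and 0.11 in bins 1 to 5, against 0.05, 0.03, 0.04, 0.05 and 0.06 for all genes tested. No member was called in any bin (0 of 9 in each, against 1.68, 1.55, 1.3, 1.14 and 0.89% of all genes). Atp6v1a and Atp6v1h were higher with DHT in 5 of 5 bins under each of the 3 scalings. Atp6v1h had log2 ratios of 0.21, 0.35, 0.15, 0.15 and 0.13, and Atp6v1a of 0.11, 0.11, 0.05, 0.06 and 0.11. Atp6v1b2 was higher in 5 bins by total counts, at 0.33, 0.30, 0.12, 0.05 and 0.18, and in 4 by TMM and by median of ratios. Atp6v0d1 and Atp6v1e1 were likewise higher in 5 bins by totals and in 4 by TMM, and Atp6v1c1 in 5 and in 3. By totals, 4129 of 6546 genes tested were higher with DHT in bin 1, 3910 of 6568 in bin 2 and 4007 of 6532 in bin 3. In bins 4 and 5 it was 4180 of 6485 and 4330 of 6403. The bins come from the same libraries, and how many of all genes were higher, or lower, in all 5 was not counted.

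The ring genes went the other way. Atp6v0c was lower with DHT in 5 of 5 bins, at log2 ratios of -0.17, -0.08, -0.10, -0.11 and -0.10, and Atp6v0b at -0.18, -0.08, -0.10, -0.10 and -0.10, under each of the 3 scalings. Among the other subunits, Atp6v0e, Atp6v1f and Atp6v1g1 were also lower in 5 of 5 bins under each of the 3 scalings, with mean log2 ratios of -0.13, -0.16 and -0.08. Tcirg1 and Atp6ap1 were higher in 5 of 5 under each, at means of 0.19 and 0.16. Atp6ap2 and Atp6v1d were higher in 5 by total counts (means 0.07 and 0.08) but in 4 and 2 by TMM and by median of ratios. Transcript length moved with these small ratios. In binned cells the median log2 ratio was -0.04 over the 1631 genes whose longest annotated transcript was shortest (up to 2205 bases), and 0.06, 0.08 and 0.07 over the 3 groups of longer genes, of about equal size. The longest annotated transcript is 1000 bases for Atp6v0b and 2567 for Atp6v0c. For Atp6v0d1, which was higher with DHT, it is 1629 bases. By gene span the median log2 ratio was -0.01 over the shortest group (up to 11504 bases), and 0.06, 0.08 and 0.05 over the 3 longer ones. Atp6v0b spans 3008 bases and Atp6v0c 5837, both in the shortest group. Atp6v0d1 spans 41583 bases, in the group with 0.08. The part of length in the result was not tested.

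**Figure D3:**
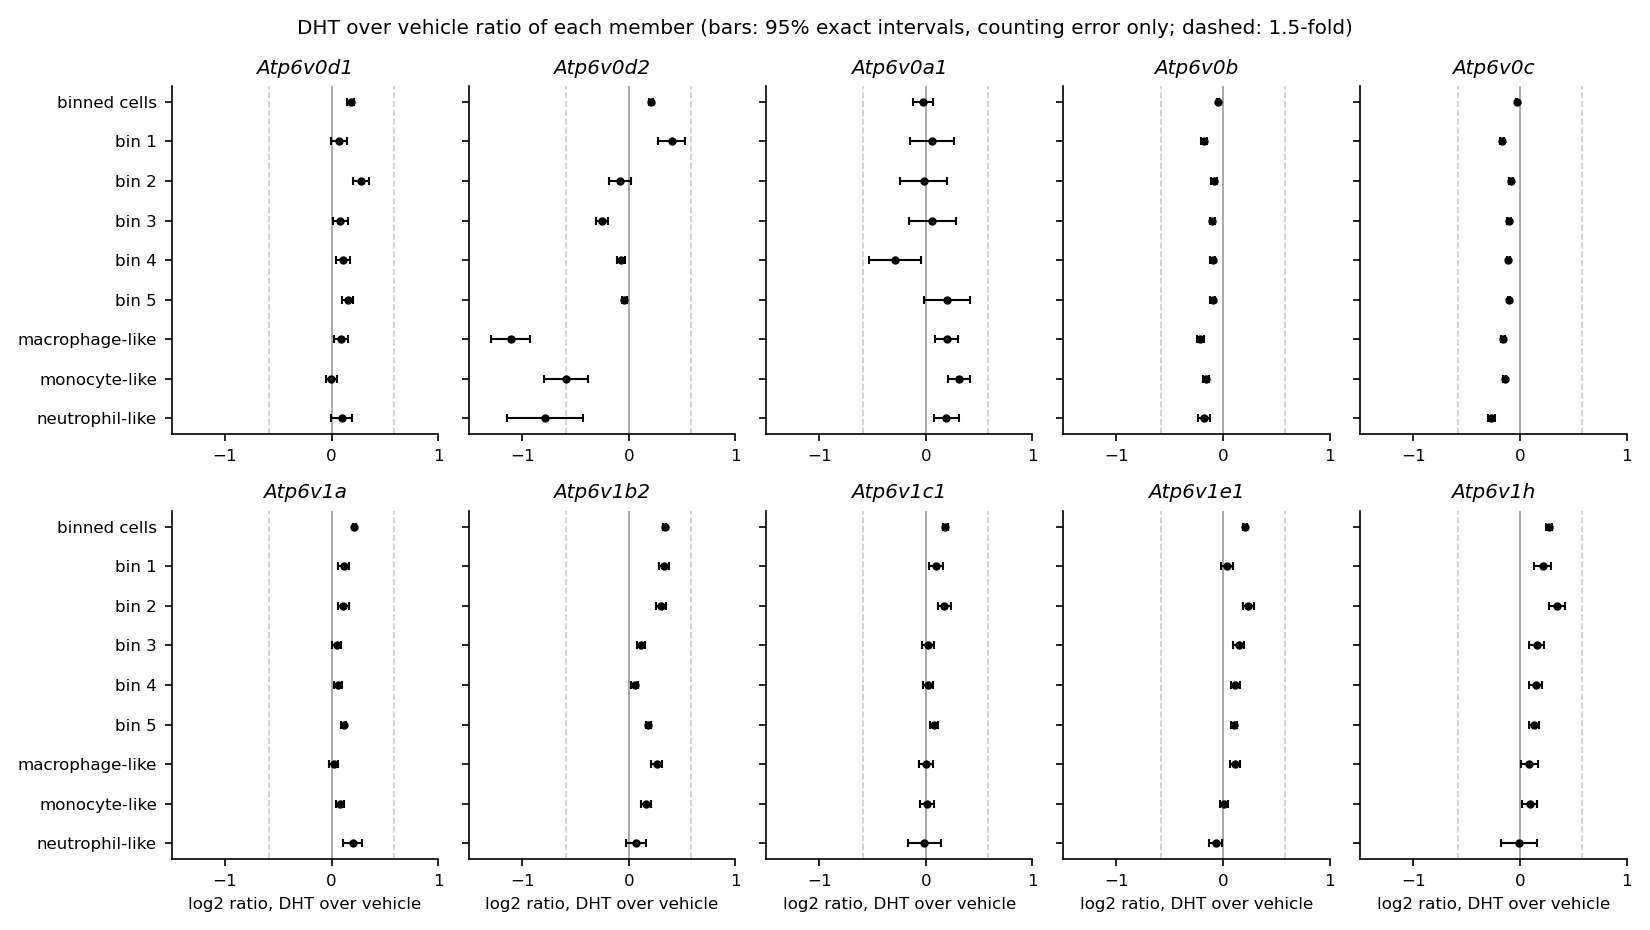
Log2 ratio of DHT over vehicle (x axis) for each member in binned cells, the 5 bins and 3 marker-named classes (y axis), with bars giving exact 95% intervals for counting error and dashed lines at 1.5-fold. In binned cells and in every bin all members lie inside the dashed lines, and Atp6v0d2 lies at -1.10 in macrophage-like cells.

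By list, the same comparison in binned cells gave 0 genes past 1.5-fold in each of the 5 other lists. The median log2 ratio was 0.14 over 8 further V-ATPase subunits, 0.22 over 6 acid transport partners, 0.06 over 11 assembly and regulation genes, -0.06 over 8 Ragulator and Rag genes and 0.20 over 5 MiT and osteoclast factors. Car2 was the highest of the acid transport partners, at 46.3 CPM with DHT and 34.2 CPM with vehicle, a log2 ratio of 0.44 (0.39 to 0.48). Lamtor4 was the lowest of the Ragulator genes, at 114 and 140 CPM (-0.30), and Rragc the highest (0.15). The further subunits ran from Atp6v1f (-0.10) to Tcirg1 (0.25), the assembly genes from Ncoa7 (-0.12) to Meak7 (0.31), and the MiT and osteoclast factors from Tfeb (-0.01) to Tfe3 (0.26). The lowest acid transport partner was Snx10 (0.12).

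In the other cells Atp6v0d2 was below its level in bin 3 of the same library. With vehicle, macrophage-like (26.4 CPM) and dendritic-like cells (52.5 CPM) were above bin 1 (23.3 CPM), and dendritic-like cells also above bin 2 (49.5 CPM). Atp6v0d2 was lower with DHT in each of the 6 classes under each of the 3 scalings. Several of these are read as background below, and B cell-like cells had only 19 and 11 UMIs. Of all genes tested, 3220 of 6531 were lower with DHT in macrophage-like cells. In macrophage-like cells (799 with DHT and 756 with vehicle) it was at 12.3 CPM, from 344 UMIs, and 26.4 CPM, from 893 UMIs. The log2 ratio was -1.10 (-1.29 to -0.92). It was the only one of 10 members past 1.5-fold there, where 4.73% of all genes (309 of 6531) passed. Its share of d subunit UMIs was 8.23% (7.42 to 9.11%) with DHT and 17.0% (16.0 to 18.1%) with vehicle. After thinning, 4.71 and 6.45% of these cells had a UMI of the gene (17.6 and 28.8% before), against 3.00 and 4.31% of neutrophil-like cells. Subtracting free RNA, estimated from neutrophil markers, left 9.01 and 21.4 CPM. The UMIs sat in few cells. The 5% with the most held 68.0% of them with DHT and 70.8% with vehicle, and 1 vehicle cell held 112 of the 893. Under the 13 other processing settings that altered this value the log2 ratio ranged from -1.41 to -0.58. It was past 1.5-fold in 12 of the 13, and short of it, at -0.58, with a filter of at least 1000 genes and 2000 UMIs, which put 1349 and 1463 cells in the class. In these cells the macrophage markers were also higher with DHT, 8 of 8 of them, summing to 2580 CPM against 1394 CPM. The neutrophil markers summed to 987 and 533 CPM, and median depth was 32593 and 46888 UMIs. Osteoclast markers did not all run alike: Ctsk was lower with DHT, at 29.1 against 55.3 CPM, and Acp5 higher, at 64.1 against 41.1 CPM. Their part in the Atp6v0d2 difference was not tested.

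Dendritic-like cells (141 and 187) had Atp6v0d2 at 21.0 CPM with DHT and 52.5 CPM with vehicle, a log2 ratio of -1.33 (-1.03 with free RNA subtracted), in a class where 15.4% of all genes passed 1.5-fold. In monocyte-like cells it was at 5.07 and 7.61 CPM, in progenitor-like cells at 3.29 and 7.93 CPM and in neutrophil-like cells at 4.59 and 7.94 CPM. After thinning, 1.76 and 2.33% of monocyte-like cells and 1.30 and 3.40% of progenitor-like cells had a UMI, no more than in neutrophil-like cells, and are read as background. Over all kept cells Atp6v0d2 was at 138 CPM with DHT and 182 CPM with vehicle.

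The ring genes kept their direction outside the binned cells too. Atp6v0b and Atp6v0c were lower with DHT in 6 of 6 classes under each scaling. The classes come from the same libraries, and how many of all genes were lower in all 6 was not counted. In macrophage-like cells Atp6v0b was at 493 and 572 CPM (log2 ratio -0.21) and Atp6v0c at 1252 and 1399 CPM (-0.16), with DHT and vehicle. Short genes leaned the same way. Of genes in the shortest span group, which holds both, 41.3, 33.0 and 33.7% were higher with DHT in macrophage-, monocyte- and neutrophil-like cells. By transcript length it was 35.8, 26.8 and 28.8% in the group of Atp6v0b, and 55.5, 55.5 and 57.3% in that of Atp6v0c. The part of length was not tested. For Atp6v1b2 the ratio in macrophage-like cells was 0.26 (229 and 192 CPM) and in monocyte-like cells 0.16 (138 and 123 CPM). Over the 10 members the median log2 ratio was 0.05 in macrophage-like cells, where all genes tested had 0.00, and 0.01 in monocyte-like and -0.01 in neutrophil-like cells, where all genes had 0.04 and 0.06.

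Atp6v0a1 was higher in each of the 6 other classes than in any bin. It was at 8.10 and 7.05 CPM in bin 5, 16.2 and 18.5 CPM in progenitor-like, 29.01 and 23.4 CPM in monocyte-like, 48.9 and 42.6 CPM in macrophage-like, 66.4 and 52.8 CPM in dendritic-like and 63.9 and 56.0 CPM in neutrophil-like cells (DHT and vehicle). Within the neutrophil-like cells it was at 32.3 and 27.7 CPM in cluster 10, led by Camp and Ngp, at 87.4 and 73.3 CPM in cluster 8, led by Ngp and Ltf, and at 100.0 and 103 CPM in cluster 4, led by Retnlg and S100a8. In cluster 4 it gave 66.5% of a subunit UMIs with DHT and 65.6% with vehicle, and Tcirg1 gave 20.9 and 21.9%. B cell-like cells had 77.3 and 73.3 CPM from only 176 and 38 UMIs. Over all kept cells Atp6v0a1 was the 1 member of 10 past 1.5-fold, at 25.8 and 16.4 CPM (log2 ratio 0.65), where 5.66% of all genes (381 of 6735) passed. The same gene had a log2 ratio of -0.03 in binned cells, 0.19 in neutrophil-like, 0.31 in monocyte-like and 0.33 in dendritic-like cells. It was higher with DHT in 5 of the 6 classes under each of the 3 scalings, and lower in progenitor-like cells. The shares of binned and neutrophil-like cells among kept cells are those given above, and their part in the result was not tested.

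**Figure D4:**
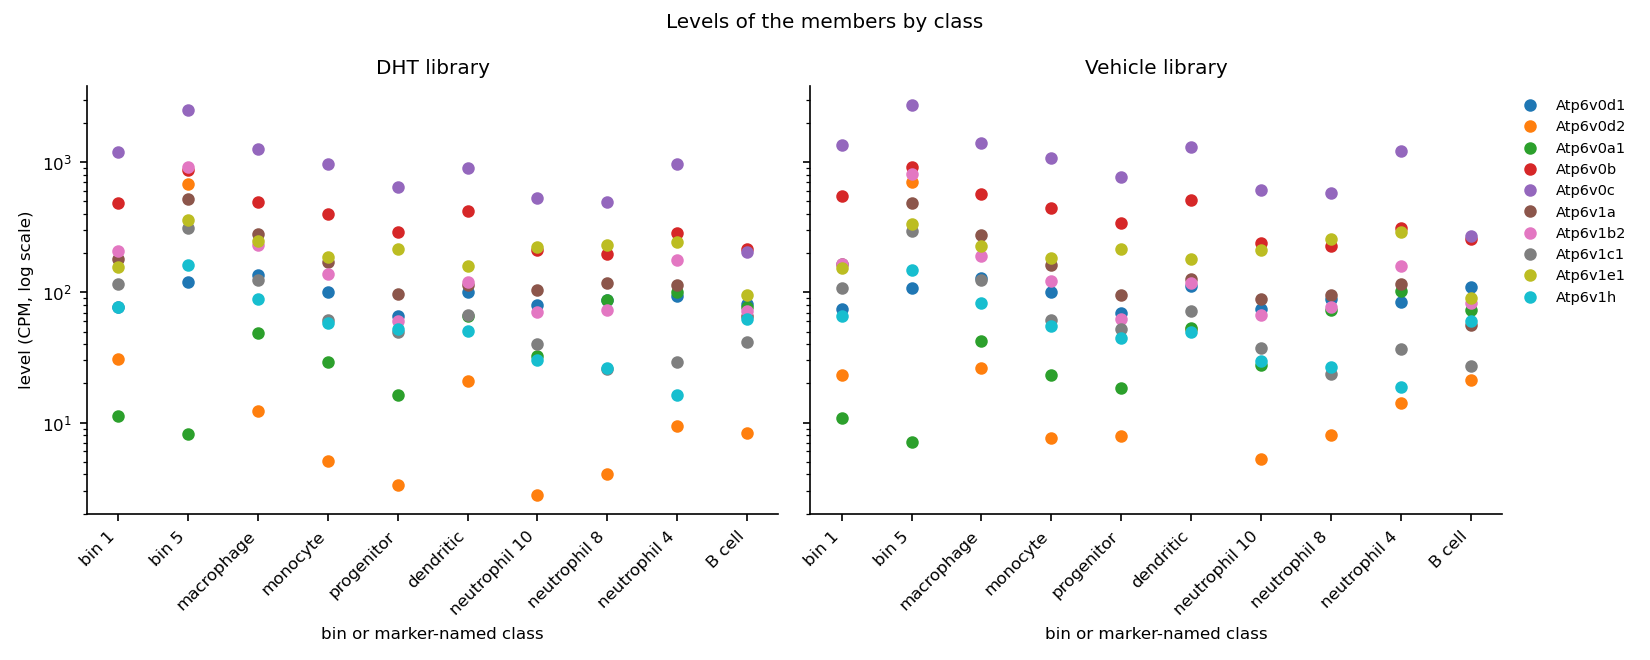
Level of the 10 members (y axis, UMIs in CPM, log scale) in bins 1 and 5 and in the marker-named classes (x axis), with the DHT library on the left and the vehicle library on the right. Atp6v0a1 (green) is lowest in bin 5 and near 100 CPM in neutrophil-like cluster 4, Atp6v0d2 (orange) is highest in bin 5, and Atp6v0c (purple) is lowest in B cell-like cells.

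Outside the osteoclast series the V1 members varied between classes. Atp6v1e1 was at 246 and 228 CPM in macrophage-like, 186 and 185 CPM in monocyte-like, 214 and 217 CPM in progenitor-like, 229 and 241 CPM in neutrophil-like, 160 and 182 CPM in dendritic-like and 94.9 and 90.7 CPM in B cell-like cells. Atp6v1h went from 88.7 and 83.5 CPM in macrophage-like to 26.2 and 26.4 CPM in neutrophil-like cells, and to 16.3 and 18.6 CPM in neutrophil-like cluster 4. Atp6v1c1 was at 123 CPM with DHT and 123 CPM with vehicle in macrophage-like cells, and at 33.4 and 33.7 CPM in neutrophil-like cells. Atp6v0d1 stayed between 65.9 and 137 CPM in the 6 classes, its lowest and highest values being in the progenitor-like and macrophage-like cells of the DHT library.

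To place the members among other genes, each gene's log2(CPM + 10) was correlated with that of Atp6v0d2 over 22 points, the 5 bins and 6 classes of both libraries. The points share libraries and depth, so r is a description and carries no p. Among the most alike of 9087 genes were Bdh2 (r = 0.993), Slc9b2 (0.990), Ocstamp (0.974), Ltbp1 (0.969), Src (0.969), Lpcat1 (0.962) and Fam102a (0.962). Slc9b2 and Ocstamp are markers used to name osteoclast-like cells. In macrophage-like cells these 2 were at 7.95 and 8.21 CPM and at 6.24 and 4.43 CPM with DHT and vehicle. They do not stand for all osteoclast markers, since Ctsk was lower with DHT in those cells, as given above. Among the members, Atp6v1b2 was most like Atp6v0d2 (r = 0.925), Atp6v0d1 had 0.316 and Atp6v0a1 -0.649. For the other 9 members summed, the most alike were Pwwp2b (0.974), Mgat4b (0.973), Dap (0.968), Raph1 (0.960), Map2k3 (0.958), Slc25a11 (0.957), Gss (0.956) and Atp6v0e (0.955), a V0 subunit outside the 10.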

How the data were processed

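Adherent marrow cells of 1 mouse were sequenced as 2 droplet-based 3′ libraries, 1 per group. The authors deposited raw UMI counts per gene and barcode, made with Cell Ranger 7.0.1, per the submitters' processing notes. Those notes list GRCh38 and mm10 but do not say what each was for. How barcodes were called as cells, and whether introns and strand were counted, is not stated in the labels. Of the gene identifiers 32235 (99.8%) matched GENCODE release M21 (GRCm38). The libraries held 319430510 (DHT) and 453802415 (vehicle) UMIs in 10798 and 10630 barcodes.

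Barcodes with at least 300 genes, 800 UMIs and at most 10% mitochondrial UMIs were kept, and Scrublet doublets (203 and 156, expected rate 0.08) removed. Clustering used scanpy 1.11.5 (2000 variable genes without interferon genes, V-ATPase genes, Acp5 and Ctsk, 30 components, 15 neighbours, Leiden resolution 0.6, leidenalg 0.10.2). A cluster took a cell type's name, with the suffix -like, when 3 or more of that type's markers, and 50% or more, exceeded 2 times the median of the remaining clusters (10 CPM added to each level) and 1 or more stood among its 10 leading genes (of several such types, the one with the most there). Clusters with a median below 2000 UMIs were left unnamed. Classes compared had at least 100 cells in each library.

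Counts were summed over cells and divided by their total (CPM). Cells are not replicates and each group has 1 library, so no test was made. Intervals (95%) are exact Poisson for CPM, Clopper-Pearson for shares and conditional binomial for ratios, for counting error only. A called gene differed 1.5-fold or more and reached 20 CPM in either library, and list medians used genes reaching 2 CPM. Free RNA in cells was estimated as the median over neutrophil markers of their level in the cells over that in the whole library. For shares of cells, each was thinned to 4719 UMIs, the 10th percentile, which left out 1060 DHT and 570 vehicle cells. On simulated counts for binned cells (6376 genes), the rule called 100% of genes simulated at 2-fold and 0 at 1.2-fold. The simulated counts had Poisson error alone, around a mean shared by both libraries. At this depth that outcome is nearly set in advance, and it does not bear on the spread between cells, cultures or animals. Members, lists, markers and the naming rule were chosen with earlier results of these data known. Besides the 10 members, the text names, from the lists of related genes, the highest and lowest of each in binned cells and along the bins, any called there and any that changed over 2-fold along the bins, and the 8 genes most correlated with Atp6v0d2 and with the other 9 members summed. Of the correlated genes, 1 is not reported here.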

Additional observations from a re-analysis of the deposited data

Results flagged for a closer look

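Atp6v0d2 was higher with DHT in the pooled binned cells and lower in other classes. Its log2 ratio was 0.21 in binned cells and -1.10 in macrophage-like, -1.33 in dendritic-like and -1.35 in B cell-like cells. In bins of the Acp5 and Ctsk share, however, it was lower with DHT in 4 of 5, with a mean log2 ratio of -0.01. The higher level thus holds for the pooled cells and not within most bins of that score. The directions depended on the score. In the 4 filled bins of Ctsk alone the log2 ratios were 0.17, 0.28, -0.07 and 0.04. In the 5 bins of Acp5 alone they were 0.05, 0.08, -0.26, -0.03 and -0.06. The B cell-like value rests on 19 UMIs with DHT and 11 with vehicle. The difference between these groups of cells was not tested, since each group has 1 library.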

How the results depend on the processing

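No paired analysis was possible because each group has 1 library. Of 102 recomputed values over 21 alternatives, 58 stayed within the counting interval of the reported value (or at the same count), 44 fell outside it and none reversed a called value. Only the Atp6v0d2 gradients along the bins passed 1.5-fold, so only they could count as reversed. The ratios of DHT over vehicle could not, and some changed sign, as given below. Leaving out a replicate could not be run with 1 library per group. The median log2 ratio of the members in binned cells (0.20) was 0.15 with TMM, 0.14 with median of ratios, 0.17 as the mean of each cell's CPM, 0.14 at mitochondrial limits of 5% and of 20%, 0.15 with at least 1000 genes and 2000 UMIs and at resolution 0.3, and 0.16 with no doublet removal, with the highest 10% of doublet scores removed, with all variable genes and without cells holding neutrophil RNA. Over all kept cells it was -0.065, with 1 member past 1.5-fold instead of 0. The mean log2 ratio of Atp6v0d2 over bins (-0.01) was 0.10 in bins of Ctsk alone and -0.43 over all kept cells.

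The log2 gradient of Atp6v0d2 with vehicle (4.91) was 4.75 as a mean of cells, 4.72 with the vehicle library thinned, 4.78 at the 20% limit, 4.66 with the stricter filter, 4.76 with no doublet removal, 4.70 at resolution 1.0, 4.83 with all variable genes, 5.15 in 10 bins, 4.65 in bins of Acp5, 3.42 in bins of Ctsk, 5.36 over all kept cells, 5.22 with free RNA subtracted and 5.37 in osteoclast-like clusters alone. With DHT (4.46) it was 4.18 as a mean of cells, 4.68 at the 5% limit, 4.58 with the highest doublet scores removed, 4.64 at resolution 0.3, 5.00 in 10 bins, 3.29 in bins of Ctsk, 6.00 over all kept cells, 4.74 with free RNA subtracted and 5.19 in osteoclast-like clusters. In macrophage-like cells the members' median (0.05) was 0.12 at the 5% limit, 0.18 at the 20% limit, 0.12 with the stricter filter, 0.13 with no doublet removal, 0.14 at resolutions 0.3 and 1.0, and 0.12 with all variable genes. The causes were not tested.

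In bins of Ctsk alone and over all kept cells, cells tied at 0 left the lowest bin empty, and the lowest filled bin was used. The osteoclast-like clusters alone and the cells without neutrophil RNA were chosen after seeing the data. Depth limits Atp6v0a1 in the bins and Atp6v0d2 outside the binned cells, where UMIs are few.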
